A study of Mus musculus with 8 samples.

Results

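The genes described here encode the chemokines, small secreted or membrane-anchored proteins that direct the movement of leukocytes, and the receptors that bind them. The family was chosen with earlier results of these data known, and its members were then taken by gene symbol. They are every listed gene whose GENCODE M21 symbol is that of a numbered CC, CXC or CX3C ligand, a numbered CC, CXC, CX3C or atypical receptor, Ccrl2 or Xcr1. This gave 45 of 17488 listed genes, 28 ligands and 17 receptors. A further 18 annotated mouse genes have matching symbols and are not analysed here, among them Ccl1, Ccl17, Ccl20, Ccl28, Cxcl11, Ccr4, Ccr6, Ccr8, Cxcr1, Cxcr3 and Cxcr6. Of the 45 members, 32 (20 ligands and 12 receptors) reached 1 CPM (count scaled to library size) in at least 4 libraries and were tested. The other 13 are given by their reads.

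The libraries came from 8 mice homozygous for TH-MYCN, in which the tyrosine hydroxylase promoter expresses human MYCN in sympathoadrenal cells and intra-abdominal neuroblastomas arise. Dosing started on tumours of 200 to 300 mm3 at about 6 weeks of age. Mice were given panobinostat, an inhibitor of histone deacetylases, at 5 mg/kg (n = 4) or vehicle (n = 4), in both cases as 2 doses 24 h apart, and tumours were collected 4 h after the second dose. Each library represents the whole tumour of 1 animal, neoplastic cells and stroma together, and both groups carry the same transgene. The labels name no pooled animals and no batch. Every vehicle animal has a lower code number than every panobinostat animal, so a cohort difference, if there was one, cannot be told apart from treatment. Summing all listed genes, vehicle libraries held between 22055658 and 23830026 reads and panobinostat libraries between 18664066 and 22235545. The deposited values are scaled to effective library sizes and not to these totals, so that 1 CPM stood for 19.3 to 22.6 reads. The effective size was 0.888 to 0.977 of the read total in vehicle libraries and 1.004 to 1.034 of it in panobinostat libraries.

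Chemokines are named for the spacing of their first cysteines (CC, CXC and CX3C). They are held on the proteoglycans of vessels and matrix, and they act on leukocytes through receptors that couple to inhibitory G proteins. Inflammatory chemokines are made on demand by macrophages, fibroblasts, endothelium and tumour cells and draw in monocytes, neutrophils and activated T cells, whereas homeostatic chemokines are made steadily and place lymphocytes and precursors in tissues. Atypical receptors bind chemokines without G-protein signalling and take them up, transport them or present them. In neuroblastoma, as in other solid tumours, chemokines of monocytes and of T cells are studied for the leukocytes that they bring into the tumour.

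Some libraries stood apart, and every main count is therefore also given without them. Among vehicle libraries, library 1 held the highest level of 20 of the 32 tested members. It also held 181 reads of Cd79a, a B cell receptor component gene, against 10 to 24 in the other vehicle libraries and 13 to 43 with panobinostat. Vehicle library 1 was thus set apart partly by the members' own values. For members highest there, leaving it out raises the fitted change by construction. Fits without it show dependence on that library and are no test of a rise. Summed liver, adrenal cortex and pancreas markers were higher in every panobinostat library than in every vehicle library, with the most liver marker reads in libraries 3 and 4. Summed liver markers stood at 147, 152, 901 and 8430 CPM in panobinostat libraries 1 to 4 and at 7.23 to 61.2 CPM with vehicle. Summed adrenal cortex markers were 722, 39.4, 1013 and 2756 CPM in that order and 9.02 to 11.2 CPM with vehicle. Summed pancreas markers were 14.2, 425, 18.1 and 2567 CPM, against 6.71 to 13.4 CPM with vehicle. Summed kidney markers were 648 CPM in panobinostat library 3 and at most 4.82 CPM in any other library. Leaving out libraries 3 and 4 therefore does not free the panobinostat group of such marker reads. Whether these reads came from neighbouring organs was not tested.

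Several marker lists of leukocytes and stroma moved with the groups as the chemokines did. Across all tested genes 31.2% were higher and 32.4% lower. Of 10 macrophage markers 9 were higher with panobinostat, with a median log2 change of 2.31, and their summed level was 353 to 721 CPM across vehicle libraries and 1645 to 2806 CPM across panobinostat libraries. C1qa, a complement gene of tissue macrophages, rose by 2.52 (SE 0.20) and Cd68, a lysosomal glycoprotein gene of macrophages, by 2.25 (SE 0.18). All 5 monocyte markers were higher (median 2.84, summed 9.83 to 159 against 156 to 324 CPM, led by Vcan and Plac8), as were all 8 fibroblast markers (median 2.63, summed 1269 to 4484 against 7876 to 14093 CPM, led by Lum and Col1a2). Adipocyte markers were higher in 6 of 6 (median 3.33, led by Adipoq and Cidec). In the same libraries 6 of 8 neuroblast markers were lower (median -1.97), among them the sympathetic regulator Isl1 (-2.23, SE 0.15).

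Other lists of leukocytes and vessels were mixed. Beside the 31.2% of all tested genes that were higher, of 4 tested neutrophil markers 1 rose, the colony-stimulating factor receptor gene Csf3r (0.82, SE 0.28), and the summed level was 9.17 to 28.4 CPM with vehicle and 15.7 to 39.7 CPM with panobinostat. T cell receptor complex genes were sparse, with Cd3e at 2 to 54 reads in vehicle tumours and 3 to 23 in treated tumours, and the T cell list held 1 higher gene (Cd4, 1.77) and 1 lower gene (Lck, -1.31). B cell markers gave no call in 2 tested genes, Fcer2a (-0.61) and Cd79a (-0.10). Of 7 markers of blood endothelium 2 rose, Vwf and Tek, a share near that of all genes. Of 5 tested dendritic cell markers 2 rose, Zbtb46 and Batf3, and the summed level was 11.03 to 18.46 CPM with vehicle against 43.2 to 50.3 CPM with panobinostat. Of 5 markers of lymphatic endothelium Reln rose and Prox1 and Pdpn fell, and the summed level was 425 to 670 CPM with vehicle against 180 to 276 CPM with panobinostat. Natural killer cell markers are not analysed here. In bulk tumour RNA, more cells of a type cannot be told apart from more RNA per cell, and the part of these markers in the chemokine results was not tested.

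**Figure D1:**
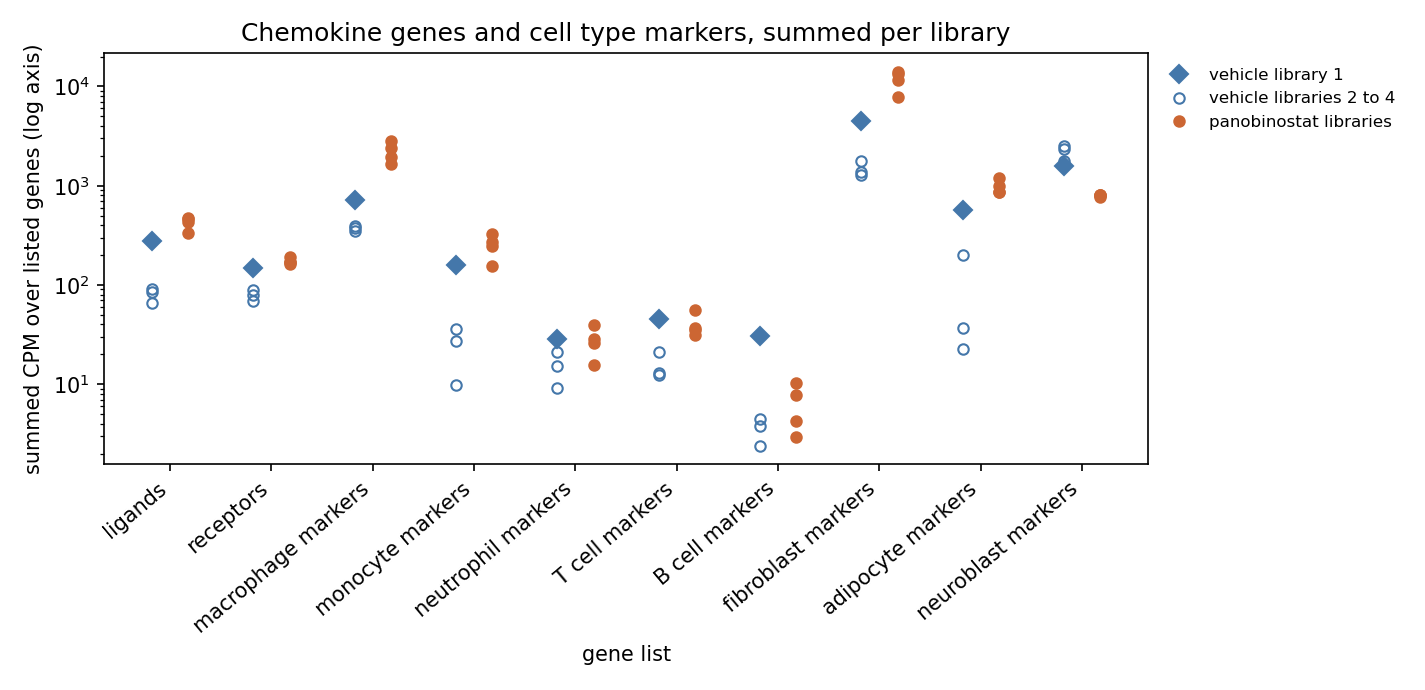
Summed CPM over the listed genes of each list (log axis), per library, for ligands, receptors and 8 marker lists. Points are single libraries, with vehicle library 1 as a filled diamond. Ligands, receptors and macrophage, monocyte, fibroblast and adipocyte markers were higher in panobinostat libraries than in vehicle libraries 2 to 4, vehicle library 1 was the highest vehicle library in each list shown but the neuroblast one, and neuroblast markers were lower with panobinostat.

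Most of the tested chemokine genes were higher in panobinostat-treated tumours. Of 20 tested ligands 16 rose, and of 12 tested receptors 6 rose, at a limma adjusted p under 0.05. Across all 16157 genes tested 31.2% were higher and 32.4% lower, a smaller share than among the members. No member was called lower, except that with quantile normalization the scavenging receptor gene Ackr2 was lower (-1.55, adjusted p = 0.0357). The median log2 change, panobinostat minus vehicle, was 2.13 over tested ligands and 1.10 over tested receptors, against -0.02 over all tested genes. Among the members called higher, the change was at least 2-fold in all 16 ligands and 6 receptors (20.7% of all tested genes were called and higher by that much) and at least 4-fold in 10 ligands and 1 receptor (9.17% of all). In 12 ligands and 5 receptors every panobinostat library lay above every vehicle library, as in 28.5% of all genes tested.

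The filter on low values admits genes through the group in which they are high, and Ccl3 and Ccl4 reached 1 CPM in no vehicle library. Among the 18 members at 1 CPM or more in all 8 libraries, 7 of 9 ligands and 6 of 9 receptors were higher. The share of all genes at that level that were higher was not counted, so this count has no like share beside it. Without vehicle library 1, 16 ligands and 8 receptors were higher and none lower (31.5% and 32.2% of all genes). Without panobinostat libraries 3 and 4, 14 ligands and 5 receptors were higher and none lower (23.4% and 25% of all genes). With no filter 17 ligands and 6 receptors were higher and none lower (31.1% and 30.4% of all genes). Summed over all members of a kind, ligand transcripts stood at 275, 90.0, 84.4 and 65.7 CPM in vehicle libraries 1 to 4 and at 458, 477, 433 and 334 CPM in panobinostat libraries 1 to 4. Receptor transcripts stood at 148, 79.6, 89.8 and 68.9 CPM with vehicle and at 170, 191, 171 and 161 CPM with panobinostat. Both sums were higher in every panobinostat library than in every vehicle library, and vehicle library 1 came nearest.

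**Figure D2:**
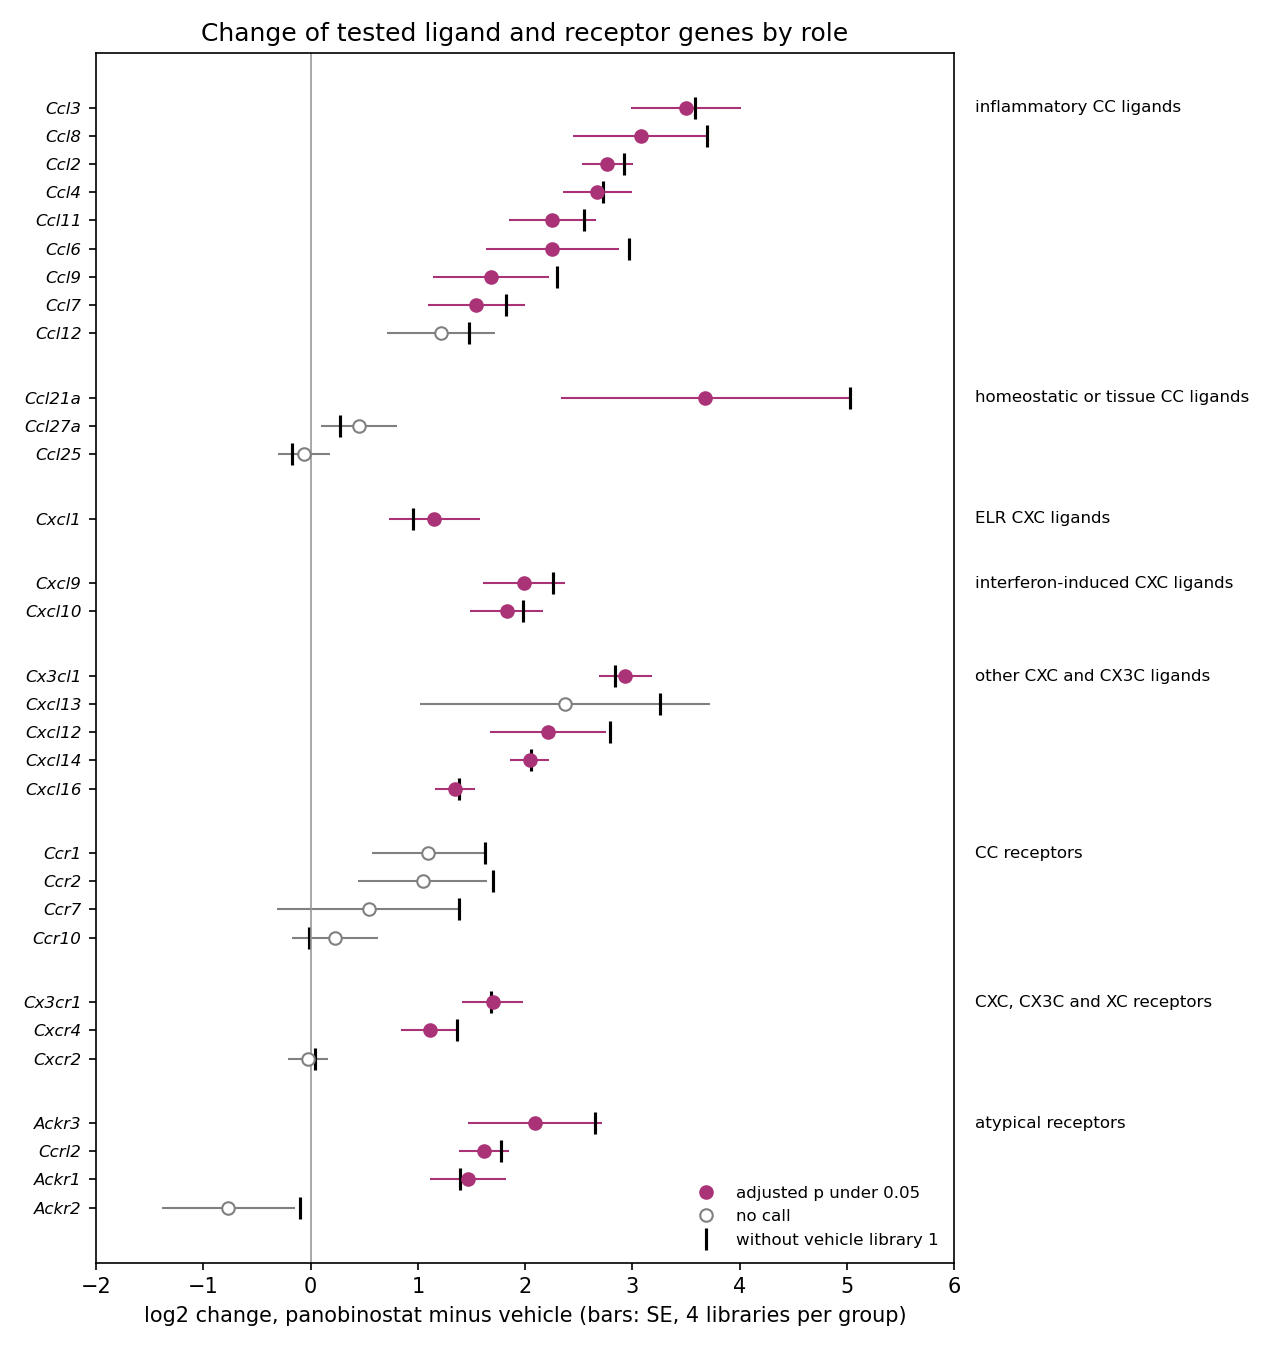
Log2 change (panobinostat minus vehicle) of tested members by role, with bars for the SE (4 libraries per group). Filled points passed an adjusted p under 0.05, open points did not, and black ticks give the value without vehicle library 1. Inflammatory CC ligands lay between 1.22 and 3.50, while Ccl25 and Cxcr2 lay near 0.

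The inflammatory CC ligands, which recruit monocytes, macrophages, eosinophils and T cells, formed the largest group. Of 9 tested, 8 rose, with a median log2 change of 2.26. The counts in this paragraph stand beside 31.2% of all tested genes higher. Their genes lie in neighbouring clusters on chromosome 11 (mm10). Ccl2, Ccl7, Ccl11, Ccl12 and Ccl8 lie between 82035571 and 82116799, and Ccl5, Ccl9, Ccl6, Ccl3 and Ccl4 between 83525778 and 83664683. In the former cluster 4 of 5 genes rose, all but Ccl12, and in the latter all 4 tested genes rose.

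Ccl2, the main attractant of Ccr2-bearing monocytes, had 2.50, 1.83, 2.31 and 1.49 log2 CPM in vehicle libraries 1 to 4 and 4.75, 4.90, 5.01 and 4.54 in panobinostat libraries 1 to 4. The groups were well apart, with a gap larger than the range within either group. The change was 2.77 (SE 0.24, 6.81-fold, limma adjusted p = 1.68e-05). Ccl8, an attractant of T cells in mice, ran from 3.58, 2.05 and 1.40 down to -0.05 with vehicle and stood at 5.00, 4.98, 5.01 and 4.31 with panobinostat. Vehicle tumours differed 12.3-fold among themselves in Ccl8 and panobinostat tumours 1.62-fold, and the groups still did not overlap. Its change was 3.08 (SE 0.63, adjusted p = 0.00227), and 3.69 without vehicle library 1.

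Ccl11 (eotaxin), which attracts eosinophils, stood at 1.13, 0.38, 0.39 and -0.88 log2 CPM with vehicle and at 2.78, 2.78, 2.19 and 2.28 with panobinostat. It rose 4.77-fold (log2 change 2.26, SE 0.40, adjusted p = 0.00101), with no overlap of the groups. Ccl7, another attractant of monocytes, rose by 1.54 (SE 0.45, adjusted p = 0.0142). For Ccl7 the groups overlapped, with 66 reads in vehicle library 1 against 52 in panobinostat library 4, and the call was lost with quantile normalization (adjusted p = 0.0595). Ccl12, a mouse monocyte attractant, had 36, 16, 37 and 7 reads with vehicle and 57, 54, 30 and 41 with panobinostat. Its change of 1.22 (SE 0.50, adjusted p = 0.0584) missed the threshold, and it passed without vehicle library 1 (1.48, adjusted p = 0.0307) or 3 (1.49, adjusted p = 0.0335).

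Ccl3 and Ccl4 encode the macrophage inflammatory proteins 1 alpha and 1 beta, which attract monocytes and T cells; Ccl3 acts on Ccr1. Ccl3 had 10, 3, 9 and 14 reads in vehicle libraries 1 to 4 and 49, 159, 105 and 79 in panobinostat libraries 1 to 4. Its log2 CPM were -1.11, -2.54, -1.25 and -0.55 against 1.15, 3.05, 2.33 and 2.02. The change, 3.50 (SE 0.51, adjusted p = 3.1e-04), was the second largest among tested members. Ccl4 had 10, 6, 7 and 12 reads with vehicle and 42, 61, 71 and 45 with panobinostat. In log2 CPM this was -1.11, -1.65, -1.59 and -0.76 against 0.93, 1.67, 1.77 and 1.21, a change of 2.67 (SE 0.32, adjusted p = 1.01e-04). Both genes were rare transcripts in vehicle tumours and were higher in all 4 panobinostat tumours. Vehicle library 1, which was highest for most members, was not highest for either.

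Ccl6 and Ccl9 are rodent chemokines made largely by myeloid cells and act on Ccr1. Ccl6 stood at 6.91, 4.35, 4.21 and 3.62 log2 CPM with vehicle and at 7.15, 7.39, 7.17 and 6.39 with panobinostat. Ccl9 stood at 5.34, 3.27, 3.01 and 2.34 against 5.37, 5.23, 5.22 and 4.87. In both genes vehicle library 1 lay within the panobinostat range and the other 3 vehicle libraries lay below all panobinostat libraries. Ccl6 rose by 2.25 (SE 0.62, adjusted p = 0.0103), and by 2.97 (SE 0.26) without vehicle library 1. Ccl9 rose by 1.68 (SE 0.54, adjusted p = 0.0209), and by 2.30 (SE 0.23) without vehicle library 1. The call of Ccl9 was lost without vehicle library 3 (adjusted p = 0.0562) or 4 (0.0578) and without panobinostat libraries 3 and 4 (0.0725).

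The remaining inflammatory CC ligands were too rare to test. Ccl5 (RANTES), a T cell and monocyte attractant, had 55, 11, 5 and 4 reads with vehicle and 30, 17, 14 and 22 with panobinostat. Vehicle library 1 held the most Ccl5, so that the groups overlapped. Ccl24, another eotaxin, had 22, 10, 17 and 5 reads against 91, 28, 29 and 16. With no filter Ccl24 was called higher (1.53, adjusted p = 0.0454).

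Cxcl9 and Cxcl10, which interferons induce and which attract T cells and natural killer cells through Cxcr3, lie together on chromosome 5 (92321347 to 92348889). A stretch upstream of Cxcl10 is shown because both genes rose and because the classic motifs of interferon and NF-kappaB signalling lie close together there. It spans chr5:92348950-92349109 (RefSeq, GRCm38.p6, minus strand), from 220 to 61 bases before the RefSeq start site. Capitals mark, in order, an interferon-stimulated response element (ISRE, GAAA, any 2 bases, GAAA), NF-kappaB consensus matches at separate places and an AP-1 match (TGANTCA). The RefSeq promoter window of Cxcl9 held an AP-1 match, after the start site, and no ISRE or NF-kappaB match.
Cxcl10: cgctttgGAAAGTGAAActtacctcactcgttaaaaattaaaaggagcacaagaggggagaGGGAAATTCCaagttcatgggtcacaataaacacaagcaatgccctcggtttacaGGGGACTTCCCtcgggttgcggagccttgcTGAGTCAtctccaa

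Cxcl10 stood at 0.61, 0.20, 0.44 and -0.65 log2 CPM in vehicle libraries 1 to 4 and at 2.42, 2.21, 1.58 and 1.69 in panobinostat libraries 1 to 4. It rose by 1.83 (SE 0.34, adjusted p = 0.00124), with 13 to 34 reads in vehicle tumours and 62 to 119 in treated tumours. Cxcl9 stood at 1.04, 0.67, -0.29 and -0.45 with vehicle and at 2.68, 2.28, 1.73 and 2.25 with panobinostat. It rose by 1.99 (SE 0.38, adjusted p = 0.0015). Neither gene's groups overlapped, and within each group the libraries of both genes spread less than 3-fold. Exons of Cxcl10 share 133 bases (5.91% of its exonic bases) with Art3 on the opposite strand, which also rose (1.28, adjusted p = 0.0359). Whether counting used strand is not given in the sources used here, so that reads in this overlap cannot be told apart.

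The CXC ligands with an ELR motif attract neutrophils through Cxcr2, and their genes also lie on chromosome 5 (90759360 to 90905938). Cxcl1 was the only one of the 4 listed to pass the filter. Upstream stretches of Cxcl1, Cxcl2 and Cxcl3 are shown because all 3 hold the NF-kappaB consensus (capitals) within the last 100 bases before the RefSeq start site, while their reads were few in both groups. They span chr5:90891135-90891194, chr5:90903769-90903828 and chr5:90785991-90786050 (RefSeq, GRCm38.p6, plus strand).
Cxcl1: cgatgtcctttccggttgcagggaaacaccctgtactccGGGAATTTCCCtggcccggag
Cxcl2: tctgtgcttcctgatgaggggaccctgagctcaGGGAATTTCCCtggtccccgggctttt
Cxcl3: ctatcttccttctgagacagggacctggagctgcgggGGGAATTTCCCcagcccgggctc

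Cxcl1 had 12, 19, 23 and 19 reads with vehicle and 34, 82, 31 and 24 with panobinostat. The lowest panobinostat library exceeded the highest vehicle library by 1 read, and panobinostat library 2 was highest. The change was 1.15 (SE 0.42, adjusted p = 0.0377). This call was lost with library weights, median centring and quantile normalization, and without any 1 of 6 libraries (adjusted p from 0.0532 to 0.356 over these settings). Cxcl2 had 12, 5, 13 and 4 reads against 7, 5, 8 and 9, Cxcl3 had 0 to 3 reads in every library, and Cxcl5 had 4, 2, 10 and 8 reads against 4, 10, 3 and 6. These numbers are too small to show a difference of moderate size at this depth.

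The remaining CXC ligands and the CX3C ligand have varied roles. Of these 4 of 5 rose (31.2% of all tested genes did), with a median log2 change of 2.21. Cx3cl1 (fractalkine; chromosome 8, 94772009 to 94782427) is a membrane-anchored ligand of neurons and endothelium that holds monocytes and microglia through Cx3cr1. It had the smallest adjusted p of all members. Its level was 1.83, 1.73, 2.11 and 2.74 log2 CPM in vehicle libraries 1 to 4 and 5.25, 5.27, 4.96 and 4.67 in panobinostat libraries 1 to 4, a 7.64-fold rise (log2 change 2.93, SE 0.25, adjusted p = 1.54e-05). Vehicle library 4 was the highest of its group, unlike for most members, and vehicle library 1 lay among the others.

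Cxcl14 (chromosome 13, 56288643 to 56296551) encodes a conserved epithelial and stromal chemokine. It stood at 2.41, 2.73, 2.33 and 2.03 log2 CPM with vehicle and at 4.46, 4.45, 4.57 and 4.20 with panobinostat. All 4 treated tumours lay within a narrow band well above vehicle, and the change was 2.04 (SE 0.18, adjusted p = 2.03e-05). Of the 33 members with a RefSeq promoter window it was the only one with a match to the gamma-activated site (GAS, TTCNNNGAA), and it also held an ISRE match. The stretch shown spans chr13:56296702-56296751 (GRCm38.p6, minus strand), with the GAS and then the ISRE match in capitals.
Cxcl14: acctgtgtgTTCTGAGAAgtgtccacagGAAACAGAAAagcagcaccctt

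Cxcl16 (chromosome 11, 70453983 to 70459984), a membrane-anchored ligand of Cxcr6 and a scavenger receptor of macrophages, stood at 3.63, 3.28, 3.62 and 3.49 log2 CPM with vehicle and at 4.96, 5.09, 5.00 and 4.35 with panobinostat. It rose 2.54-fold (log2 change 1.35, SE 0.18, adjusted p = 2.06e-04). Vehicle tumours differed only 1.27-fold in Cxcl16, the smallest spread among the tested ligands. Its exons share 552 bases (18.3% of its exonic bases) with Zmynd15 on the opposite strand, which rose by 1.43 on 33 to 167 reads per library.

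Cxcl12 (chromosome 6, 117168535 to 117181367), made by stromal cells and endothelium, retains Cxcr4-bearing haematopoietic and tumour cells. It had 5.46, 3.91, 2.45 and 3.02 log2 CPM with vehicle and 6.18, 5.72, 5.79 and 6.00 with panobinostat. The groups did not overlap, but vehicle tumours differed 8.04-fold from each other and panobinostat tumours 1.38-fold. The change was 2.21 (SE 0.54, adjusted p = 0.00585), and 2.80 (SE 0.31) without vehicle library 1. Cxcl13, the B cell attractant of lymphoid follicles, had 72, 44, 0 and 9 reads with vehicle and 39, 57, 47 and 82 with panobinostat. Its change of 2.38 had an SE of 1.35 and no call (adjusted p = 0.151), since vehicle libraries 1 and 2 lay within the panobinostat range and the others near 0.

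**Figure D3:**
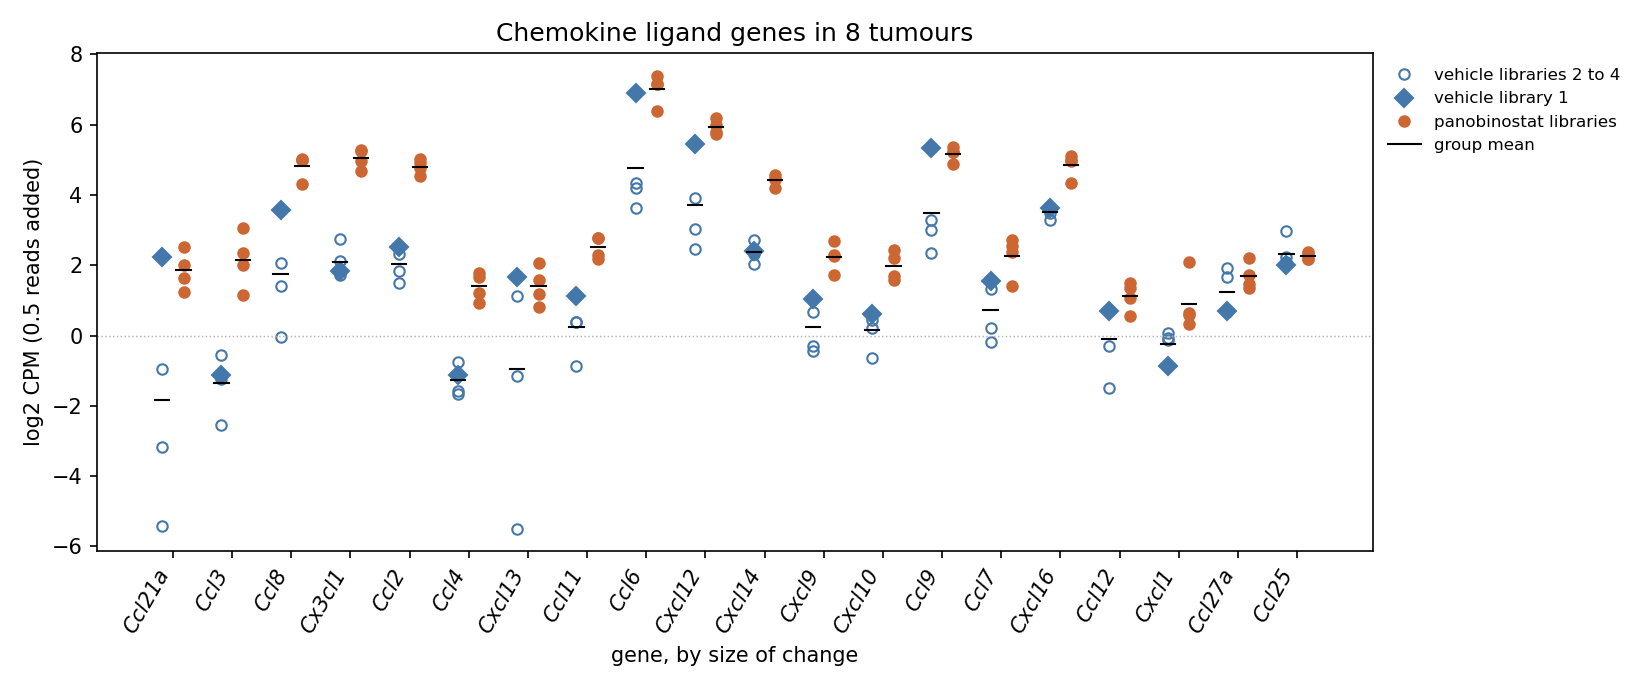
Log2 CPM of the 20 tested ligand genes in each library, ordered by size of change, with group means as black bars. Vehicle library 1 (filled diamond) lay near or within the panobinostat range for Ccl21a, Ccl6, Ccl9 and Cxcl13 and among the other vehicle libraries for Cx3cl1, Cxcl14 and Cxcl16.

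Homeostatic and tissue CC ligands place lymphocytes in lymphoid organs, gut and skin. Of 3 tested 1 rose, a share near the 31.2% of all tested genes, with a median log2 change of 0.45. Ccl21a, the serine form of the Ccr7 ligand that guides T cells and dendritic cells into lymph nodes, had 105, 10, 2 and 0 reads with vehicle and 52, 77, 65 and 112 with panobinostat. Vehicle library 1 lay within the panobinostat range. The change of 3.68 (SE 1.35, adjusted p = 0.0374) rests on the 0.5 reads that the deposited values add, since vehicle library 4 held no read. It was called without vehicle library 1 (5.03) and lost when any other single library was left out (2.49 to 3.97, adjusted p from 0.0509 to 0.0935).

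Of the 50-base stretches of Ccl21a, 71.6% also occur in other annotated genes, and 100% of those of Ccl21b, so that reads of these near copies on chromosome 4 cannot be assigned with certainty. Ccl21b had 42, 8, 0 and 0 reads with vehicle and 20, 36, 19 and 47 with panobinostat. It was thus also high in vehicle library 1 and near 0 in vehicle libraries 3 and 4. Ccl27a, a skin chemokine, showed no call (0.45, 95% interval -0.34 to 1.25), and 45.0% of its stretches occur in other genes. Ccl25, the thymic and gut chemokine, gave no call, with 87 to 178 reads in vehicle tumours and 86 to 116 in treated tumours (-0.06, 95% interval -0.61 to 0.49). Ccl19, the other Ccr7 ligand, had 1 to 7 reads in every library, and 52.0% of its stretches are shared. Ccl22, which attracts regulatory T cells, had 19, 2, 1 and 2 reads against 33, 5, 10 and 27.

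The CC receptors include those of monocytes, macrophages and lymphocytes. Ccr1 (123962124 to 123968692) and Ccr2 (124101950 to 124113557) lie near each other on chromosome 9. Ccr1 and Ccr2 depended on vehicle library 1. Ccr2, the receptor of inflammatory monocytes for Ccl2, stood at 4.24, 1.34, 2.28 and 1.20 log2 CPM with vehicle and at 3.67, 3.28, 3.46 and 2.83 with panobinostat. The highest value of all 8 was thus in a vehicle tumour, and the change of 1.05 (SE 0.60, 95% interval -0.31 to 2.40) gave no call (adjusted p = 0.155). Without that library it was 1.70 (SE 0.32, adjusted p = 0.00148). Ccr1, a receptor of monocytes and neutrophils, stood at 3.13, 0.88, 1.54 and 0.66 against 3.18, 2.82, 2.67 and 1.92. Its change of 1.10 (SE 0.52, adjusted p = 0.0936) became 1.62 (adjusted p = 0.0031) without vehicle library 1. In both genes the other 3 vehicle tumours lay below all panobinostat tumours. Leaving out the highest vehicle library raises the change by construction, so these refits show dependence on it and do not test a rise.

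Lymphocyte receptors showed no call. Ccr7, the lymph node homing receptor, had 133, 15, 8 and 14 reads with vehicle and 49, 25, 11 and 64 with panobinostat (0.55, SE 0.86, adjusted p = 0.595). Ccr10, the receptor of Ccl27a, had 13 to 38 reads against 14 to 36 (0.23, 95% interval -0.67 to 1.13). Cxcr5, the follicular B cell receptor of Cxcl13, was not tested and had 26, 6, 2 and 5 reads against 24, 16, 5 and 17. Ccr7 and Cxcr5 were highest in vehicle library 1, where the summed B cell markers stood at 30.6 CPM against 2.41 to 4.41 CPM in the other vehicle libraries. The part of those cells in these values was not tested. Ccr3 (0 to 15 reads, eosinophils), Ccr9 (3 to 17 reads, gut-homing T cells) and Xcr1 (8 to 18 reads, cross-presenting dendritic cells) were also below the filter.

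Of the CXC and CX3C receptors 2 of 3 tested rose (31.2% of all tested genes did), with a median log2 change of 1.11. Cx3cr1 (chromosome 9, 119901616 to 120069879), the fractalkine receptor of monocytes and microglia, stood at 3.30, 2.68, 3.72 and 3.68 log2 CPM with vehicle and at 4.67, 5.68, 5.02 and 4.79 with panobinostat. It rose by 1.70 (SE 0.29, adjusted p = 6.97e-04), and vehicle library 1 was not high for it. Cxcr4 (chromosome 1, 128588199 to 128592293), the Cxcl12 receptor, stood at 4.33, 3.10, 3.11 and 3.77 against 4.71, 4.71, 4.82 and 4.52. The rise was 2.16-fold (log2 change 1.11, SE 0.27, adjusted p = 0.00516), with panobinostat tumours within 1.23-fold of each other. Neither gene's groups overlapped.

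Cxcr2 (chromosome 1, 74153989 to 74161246), the neutrophil receptor for Cxcl1, Cxcl2 and Cxcl5, differed from this pattern. It stood at 5.36, 5.36, 5.33 and 4.57 log2 CPM with vehicle and at 5.05, 5.26, 5.04 and 5.17 with panobinostat. Its change was -0.02 (SE 0.18, adjusted p = 0.917), and the 95% interval, -0.44 to 0.39, does not reach a 1.5-fold change in either direction. With 502 to 928 reads per library, depth was not limiting.

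Atypical receptors rose in 3 of 4 tested (31.2% of all tested genes did), with a median log2 change of 1.54. Ccrl2, which holds chemerin at the surface of myeloid and endothelial cells, stood at 1.21, 0.76, 0.44 and 0.57 log2 CPM with vehicle and at 2.29, 2.52, 2.43 and 2.21 with panobinostat. It had the smallest adjusted p of all receptors (2.73e-04; log2 change 1.62, SE 0.23), and its groups were far apart. It also holds an NF-kappaB consensus match before a RefSeq start site, shown in capitals to set it beside the Cxcl1 stretch (chr9:111057544-111057603, GRCm38.p6, minus strand).
Ccrl2: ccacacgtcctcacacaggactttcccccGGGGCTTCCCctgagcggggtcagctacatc

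Ackr3, which removes Cxcl12, stood at 3.85, 2.74, 0.95 and 1.17 log2 CPM with vehicle and at 4.47, 3.37, 4.36 and 4.87 with panobinostat. The groups overlapped through vehicle library 1, and the change was 2.09 (SE 0.62, adjusted p = 0.0153). It was 2.65 (SE 0.48) without vehicle library 1 and lost its call without panobinostat libraries 3 and 4 (1.75, adjusted p = 0.114). Ackr1 (the Duffy antigen receptor of venules and red cells) stood at 1.16, 0.72, 2.38 and 1.25 against 2.48, 3.28, 2.72 and 2.90. It rose by 1.47 (SE 0.36, adjusted p = 0.00551), a call lost with quantile normalization (adjusted p = 0.0616). Its exons share 361 bases (25.7%) with Cadm3 on the same strand, which also rose (1.17, adjusted p = 0.0135), so part of its reads may belong to either gene.

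Ackr2, which degrades inflammatory CC chemokines, was the only atypical receptor below 0 among those tested. It had 168, 32, 15 and 30 reads with vehicle and 27, 19, 20 and 22 with panobinostat. Vehicle library 1 stood far above the other 7 libraries. The change was -0.77 (SE 0.62, adjusted p = 0.303), and -0.10 without that library. Ackr4, which removes Ccl19 and Ccl21, ranged over 4 to 15 reads without panobinostat and 1 to 13 with it, and was not tested.

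**Figure D4:**
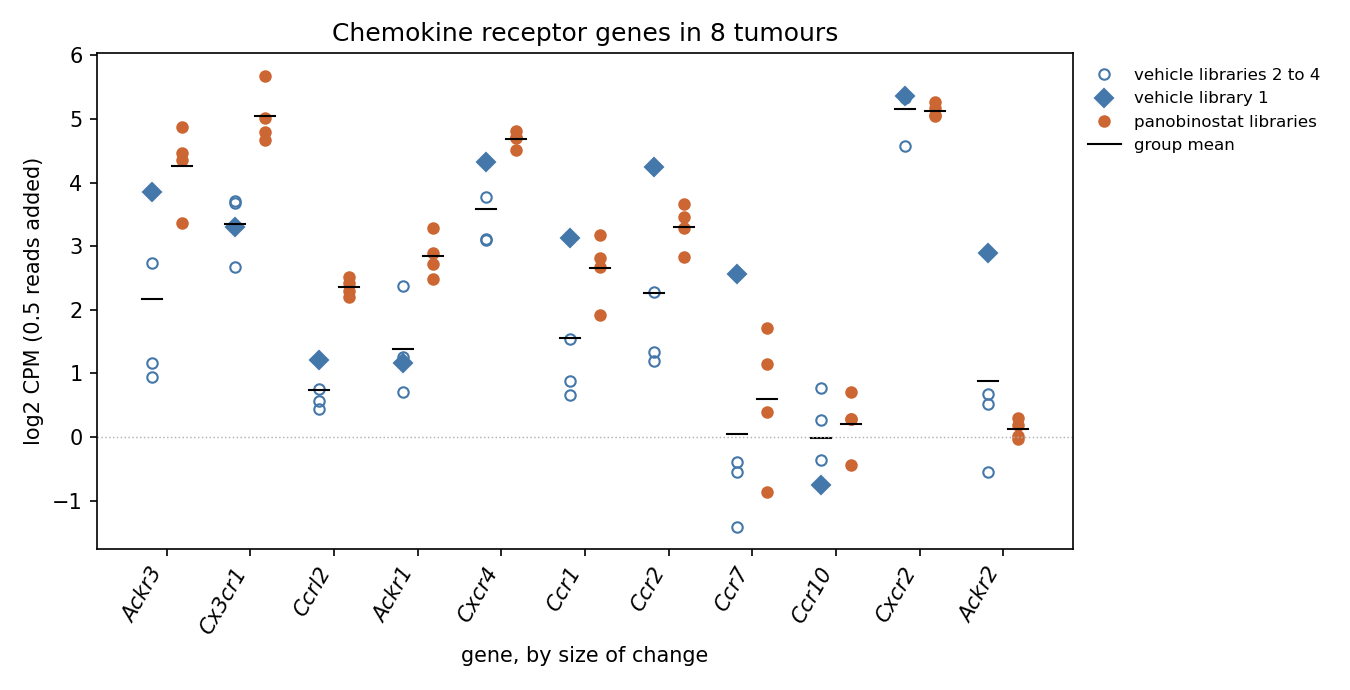
Log2 CPM of tested receptor genes in each library, ordered by size of change, with group means as black bars. Vehicle library 1 (filled diamond) had the highest value of all 8 libraries for Ccr2, Ccr7 and Ackr2, and the groups of Cxcr2 overlapped.

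Ligands were then set beside the receptors that they bind, over 30 pairs taken from textbook knowledge. In 12 pairs both genes were tested. Both rose for Cxcl12 with Cxcr4, Cxcl12 with Ackr3 and Cx3cl1 with Cx3cr1. In 5 pairs the ligand rose and the receptor gave no call (Ccl2 and Ccl7 with Ccr2, Ccl3 with Ccr1, Ccl21a with Ccr7, Cxcl1 with Cxcr2). In 2, Ccl12 with Ccr2 and Ccl27a with Ccr10, neither was called. In 12 of 12 pairs the fitted change of the ligand lay above that of its receptor, from 2.21 beside 2.09 for Cxcl12 and Ackr3 to 3.68 beside 0.55 for Ccl21a and Ccr7. Pairs share genes, all come from the same 8 libraries, and the difference within a pair was not tested.

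**Figure D5:**
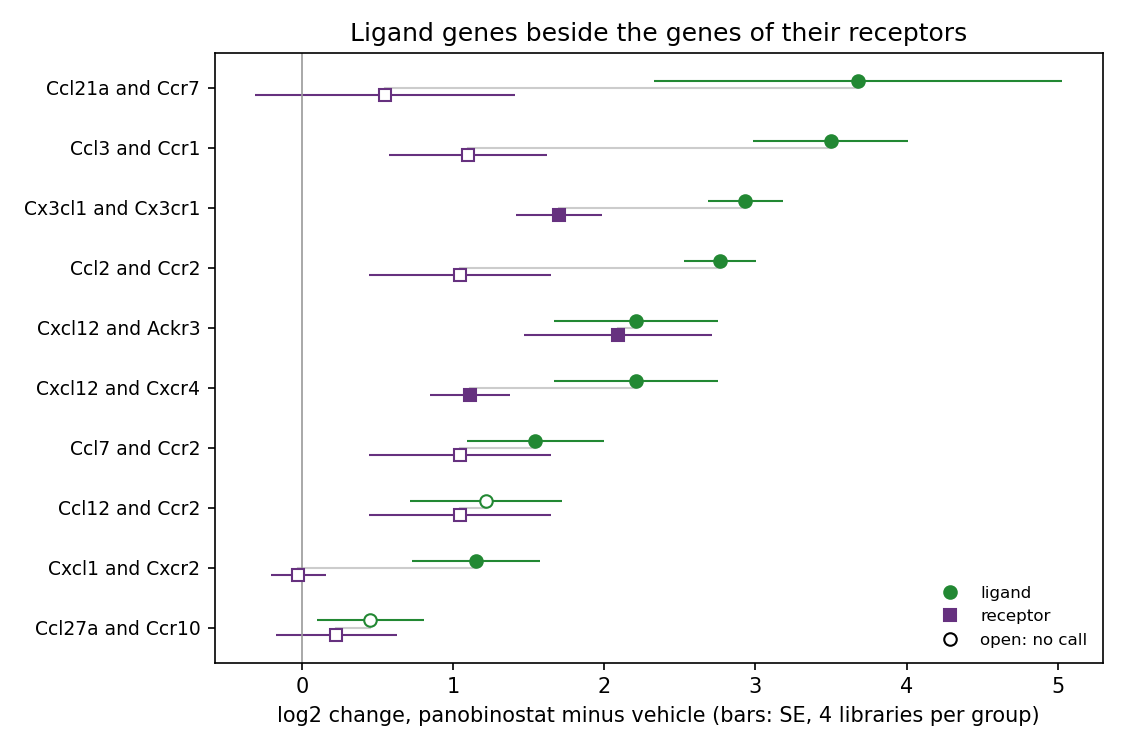
Log2 change (panobinostat minus vehicle) of ligand (circles) and receptor (squares) genes in pairs with both tested, with bars for the SE (4 libraries per group). Open symbols gave no call. The ligand lay to the right of its receptor in each pair shown, least so for Cxcl12 and Ackr3.

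Levels of different genes were compared per kilobase of exon. Over the 8 libraries the highest ligand levels were those of Ccl6 (49.4 CPM per kb), Ccl8 (33.1), Ccl2 (14.2) and Ccl9 (8.56). By sample, Ccl6 ranged from 6.84 to 67.0 CPM per kb with vehicle and from 46.9 to 93.6 CPM per kb with panobinostat. The level of Ccl2 was 2.45 to 4.97 CPM per kb in the vehicle group, within the range of Ccl9 there (1.66 to 13.3) and overlapping that of Cxcl16 (3.21 to 4.08). In the panobinostat group Ccl2 lay between 20.5 and 28.3 CPM per kb, above the range of Ccl9 (9.59 to 13.6) and of Cxcl16 (6.73 to 11.3). These orders were not tested. The highest receptor levels were those of Cxcr2 (11.8 CPM per kb), Cxcr4 (10.7) and Cx3cr1 (4.96). Cxcr2 was above Cxcr4 in each of the 4 vehicle samples and below it in each of the 4 panobinostat samples, an order that was not tested. Ccl6 took 18.7% to 43.7% of all ligand reads in vehicle libraries and 25.2% to 35.2% with panobinostat, the highest share being that of vehicle library 1.

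The log2 CPM of members spread more between libraries than that of the typical gene. The median SD over vehicle libraries was 0.750 log2 units for tested members and 0.296 for all tested genes, and over panobinostat libraries it was 0.366 and 0.156. The genes compared were not matched for level. In vehicle libraries the members ranged from rare ones, such as Ccl3 (3 to 14 reads), to abundant ones, such as Ccl6 (260 to 2723 reads). The part of low read numbers in this gap was not tested, so it is not a measure of variation between tumours alone. The spread over vehicle tumours was at least 2-fold for 15 tested ligands and 10 tested receptors, and over panobinostat tumours for 5 of each. In 24 of the 32 tested members vehicle libraries 2 to 4 all lay below every panobinostat library, whereas in 12 members vehicle library 1 lay above the lowest panobinostat library. Setting aside the vehicle library that was highest for most members makes such separation easier. Its share over all tested genes was not counted. With all 4 vehicle libraries, 17 members and 28.5% of all tested genes had every panobinostat library above. Of the 10 tested members with no call, 5 were highest in vehicle library 1 among the vehicle libraries.

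RefSeq gave promoter windows, from 250 bases before to 50 after a start site, for 33 member genes (38 windows). Matches were sought on both strands and each motif was counted on its own, so that matches may overlap. The NF-kappaB consensus was found in 10 member windows (26.3%) and in 8.46% of all 32851 windows, and these 10 belonged to Ackr2, Ccl27a, Ccl9, Ccr1, Ccr3, Ccrl2, Cxcl1, Cxcl10, Cxcl2 and Cxcl3. Of these Ccl9, Ccrl2, Cxcl1 and Cxcl10 rose. The ISRE was found in 7.89% of member windows and 3.44% of all, AP-1 in 13.2% and 7.81%, the GAS in 2.63% and 8.3%, and the GC box (GGGCGG) in 26.3% and 35.7%. These matches describe letters in the windows and not binding in these tumours.

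Genes that induce, process or transmit chemokine signals were counted from lists that were likewise chosen with earlier results of these data known. Their counts stand beside 31.2% of all tested genes higher and 32.4% lower. Of 27 inducers tested 22 rose and 1 fell, the NF-kappaB subunit gene Rela (-0.45, SE 0.13), with a median of 1.38. These included the interferon signal transducer Stat2 (1.66, SE 0.14) and the Toll-like receptor adaptor gene Ticam1 (2.01, SE 0.16). Of 19 genes that process or retain ligands 13 rose and 1 fell, the heparan sulfate enzyme gene Ndst1 (adjusted p = 4.89e-05), with a median of 1.10. The heparan sulfate proteoglycan gene Sdc2 rose by 2.17 (SE 0.12), the protease gene Adam17, which sheds Cx3cl1 and other surface proteins, by 1.51 (SE 0.11), and the macrophage elastase gene Mmp12 by 3.87 (SE 0.30).

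Receptor signalling genes were more mixed, with 23 of 36 higher and 7 lower (median 1.16). The counts here also stand beside 31.2% of all tested genes higher and 32.4% lower. Those with the smallest adjusted p were Rgs10 (2.92, SE 0.19), which shortens G-protein signals, the kinase gene Prkcd (2.70, SE 0.17) and the phospholipase gene Plcb3 (2.44, SE 0.10). Of 16 leukocyte adhesion genes 10 rose and none fell (median 1.66), with the endothelial ligand Icam1 at 2.73 (SE 0.21) and the integrins Itgax at 2.48 (SE 0.22) and Itgb2 at 2.01 (SE 0.29). Of 6 family genes with other symbols 5 rose and 1 fell, while their summed level was 283 to 422 CPM with vehicle and 213 to 244 CPM with panobinostat. Pf4, platelet factor 4, rose by 3.14 (SE 0.68), the chemerin gene Rarres2 by 2.87 (SE 0.41), while the chemokine-like cytokine gene Mif fell by 1.24 (SE 0.17). The others that rose were Ppbp, Cmklr1 and Gpr182.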

How the data were processed

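RNA-seq of 8 whole tumours, 4 per group, was analysed from 1 table of the series. Its deposited values are log2 CPM with 0.5 reads added to each count, a form settled from the values: 100% of them gave whole reads within a tolerance of 0.01 read. Per the submitters' processing notes, the tools were limma, HTSeq, TopHat2 and CASAVA 1.8.2 and the build mm10, with no roles. Which annotation, filter and normalization the authors used, and whether they counted by strand, was not given in the sources used. Symbols and coordinates came from GENCODE M21 by gene identifier (17228 matched, 260 not), and promoter sequences from RefSeq (GRCm38.p6).

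Genes at 1 CPM or more in at least 4 of 8 libraries (16157, leaving out 1331) entered a 2-group limma fit (version 3.58.1, R 4.3.3; lmFit, eBayes with a variance trend, no covariate). Tests were two-sided, with Benjamini-Hochberg adjustment over all tested genes and a threshold of 0.05. The fit was tested on simulated counts with the same dispersion for every gene and no outlying library. That run checks the code and does not cover the spread of the members. Changes of genes near 0 reads are understated by the added 0.5 reads. Groups came from the labels, where each library is a separate animal. The members and lists were chosen with earlier results of these data known. Values in every library were given for the 10 ligands and 8 receptors with the smallest adjusted p and the 4 ligands and 3 receptors with the highest level per kb, and the 3 genes of each pathway list and 2 of each marker list with the smallest adjusted p were named. Some genes that this rule names are not reported here. Other genes named were chosen after their values were seen. Alternatives were other filters, an added 1 CPM, variance settings, library or voom weights, other scalings, stricter thresholds and leaving out libraries.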

Additional observations from a re-analysis of the deposited data

Results flagged for a closer look

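In 64 groups of 4 libraries (32 tested members in each treatment) the distance of the extreme library from its nearest neighbour, as a share of the group's range, was compared with Dixon's 95% critical value for 4 samples. Chance alone would flag about 1 group in 20. Ccl8 in panobinostat library 4 was the lowest of its group, with a share of 0.964: it stood at 4.31 log2 CPM where the other panobinostat libraries stood between 4.98 and 5.01. Cxcr2 in vehicle library 4 was the lowest of its group, with a share of 0.96: it stood at 4.57 log2 CPM where the other vehicle libraries stood between 5.33 and 5.36.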

How the results depend on the processing

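No ligand was called lower under any of the alternatives run, and no member's change reversed while called. With a filter of 5 CPM, which left 16 members tested, 8 ligands and 5 receptors were higher (4090 of all 12962 genes tested). In a test against a 1.5-fold change 12 ligands and 3 receptors were higher (17.3% of all genes) and none lower (13.5% of all genes). With quantile normalization 13 ligands and 5 receptors were higher and 1 receptor was lower (4676 genes higher and 5969 lower of 16157). At an adjusted p of 0.01 there were 11 higher ligands and 5 higher receptors (3908 of 16157 genes). Leaving out 1 library at a time gave 13 to 16 higher ligands and 6 to 8 higher receptors, with 0 lower in each case (4467 to 5106 genes higher and 4708 to 5361 lower). Library weights added Ccr1 (adjusted p = 0.0486) and Ccl27a (0.0293), and 1 CPM added gave Ccl12 (0.0413). Median centring moved the median change of all genes from -0.02 to -0.14, quantile normalization to -0.12, and scaling to read totals to 0.10. No paired analysis was possible because the labels give no replicate numbers that link vehicle with panobinostat animals. Depth limits the 13 untested members, none of which passed 91 reads in a library.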

Other observations

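The groups of Cxcr2 overlapped, and its level stood high beside other neutrophil genes. Its mean level over the 8 libraries was 11.8 CPM per kb of exon, against 6.33 for S100a9, 3.72 for Csf3r and 2.53 for S100a8, which encode proteins of neutrophils. S100a9 varied from 24 to 105 reads with vehicle and from 20 to 151 with panobinostat, while Cxcr2 varied from 502 to 928 and from 687 to 741. Which cells held the Cxcr2 transcripts was not tested.

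Of the vehicle libraries, library 1 held the most reads of several lymphoid members and lymphocyte genes. It had 105 of Ccl21a, 133 of Ccr7 and 54 of Cd3e, against at most 15 of any of these genes in the other vehicle libraries. Panobinostat libraries held 52 to 112 reads of Ccl21a and 11 to 64 of Ccr7.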
